A study of Homo sapiens with 6 samples.

Results

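The genes described here are 4 transcription factors of the integrated stress response, ATF3, DDIT3, NUPR1 and CEBPB, and the secreted factor GDF15. They are the 5 rows, of 6018 in the authors' deposited table, whose gene symbol is one of these names. They were selected on their listed fold changes, so the fold changes, levels and p-values below describe them and are not tests of them.

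The study sequenced RNA of C4-2B, a human prostate cancer line of the LNCaP lineage that arose through the C4-2 subline and xenografts in castrated mice, in 3 libraries of an abiraterone-selected subline and 3 of the parental line. Abiraterone blocks CYP17A1, an enzyme of androgen synthesis. The selected cells had been taken through rising abiraterone, 1 to 20 µM, during at least 6 months, were kept in 5 µM and are labelled as passage 15 to 18. The parental cells went through passages beside them in 1% DMSO and are labelled as passage 0, so passage number and line cannot be told apart. All cells grew in 10% serum. The extraction protocol also names 10 µM abiraterone, and its wording does not settle whether the parental cells received it. The selected subline is 1 line, and nothing in the labels says that its libraries, or the parental ones, came from separate cultures.

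The values come from the authors' DESeq2 comparison of condition C with condition V, which has no column per library, so no value per sample and no sequencing depth can be given. The header calls C control and V vehicle and says that a negative log2 fold change means higher expression in V. Titles of the parental libraries carry a V, which would make C the selected subline if the table compares the 2 lines of the series, against the header's word for C. The header does not tie C or V to a line, so directions are given as C or V only. Genes with a listed adjusted p under 0.05 are referred to as called. The table is a selection: the smallest absolute log2 fold change in it is 1.20 and no listed p exceeds 0.05, so a gene that is not listed may have missed either limit. Of the 10 prostate luminal markers, KLK3, KLK2 and KRT8 were listed. Per the authors' deposited table KLK3 and KLK2 were higher in C, with derived levels of 15170 and 2798 in C and 3363 and 466 in V. KRT8 was higher in V, with 1364 in C and 3715 in V. Of the 19 leukocyte, fibroblast and endothelial markers 8 were listed, and the 6 leukocyte and endothelial ones among them had derived levels under 1 in C and of 3.67 to 35.7 in V. COL1A1 had derived levels of 72.4 in C and 294 in V, and PDGFRB of 10.2 in C and 2.96 in V, per the authors' deposited table. The part of these cell types in the results below was not tested.

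The integrated stress response is the shared answer of cells to a burdened endoplasmic reticulum, scarce amino acids, double-stranded RNA or lack of heme. Sensor kinases phosphorylate the initiation factor eIF2alpha, which slows most protein synthesis but lets the message of the transcription factor ATF4 be translated. ATF4, with partners of the C/EBP family, turns on ATF3, DDIT3 and other genes that restore amino acids and folding or, under lasting stress, favour cell death. GDF15, a distant member of the TGF-beta family, is induced by this route and by p53, is abundant in prostate tissue and acts on the brainstem receptor GFRAL to lower appetite.

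The bases before the annotated starts are shown for 4 of the genes because ATF4 and its partners are known to act at such sites. RefSeq windows on GRCh38.p14 were found for 4 of the 5 genes, 7 windows in all. Each is printed 5′ to 3′ on the gene's strand, without bases that an exon of a GENCODE release 29 basic transcript covers, and capitals mark matches to the motifs named below. The GDF15 bases are chr19:18385908-18386157, plus strand. The DDIT3 bases are chr12:57520518-57520767, minus strand. The upstream ATF3 start is preceded by chr1:212565157-212565333 and the downstream CEBPB start by chr20:50190580-50190733, both on the plus strand.
GDF15: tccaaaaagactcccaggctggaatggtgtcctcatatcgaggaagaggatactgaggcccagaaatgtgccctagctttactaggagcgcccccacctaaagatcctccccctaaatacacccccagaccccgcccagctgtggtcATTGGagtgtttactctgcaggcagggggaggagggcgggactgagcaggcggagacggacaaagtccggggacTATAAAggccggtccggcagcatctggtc
DDIT3: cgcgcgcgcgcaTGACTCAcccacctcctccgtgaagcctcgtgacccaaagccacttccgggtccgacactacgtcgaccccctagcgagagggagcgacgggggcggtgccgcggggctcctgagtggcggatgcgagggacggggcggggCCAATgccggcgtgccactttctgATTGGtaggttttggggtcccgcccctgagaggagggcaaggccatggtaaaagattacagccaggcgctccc
ATF3: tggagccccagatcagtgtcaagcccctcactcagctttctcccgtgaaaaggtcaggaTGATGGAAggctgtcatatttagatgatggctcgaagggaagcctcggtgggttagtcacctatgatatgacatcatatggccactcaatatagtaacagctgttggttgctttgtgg
CEBPB: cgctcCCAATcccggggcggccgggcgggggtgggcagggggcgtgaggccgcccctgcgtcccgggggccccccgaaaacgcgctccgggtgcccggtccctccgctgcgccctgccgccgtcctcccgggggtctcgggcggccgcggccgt

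Positions are counted from the RefSeq start, with -1 the base before it, and both strands of the 250 bases before each start were searched. GDF15 held the TATA box TATAAA at -29 to -24 and the complement of CCAAT at -103 to -99. CEBPB held CCAAT at -245 to -241 of its downstream start and, in bases not printed, TATAAA at -29 to -24 and the ATF/CREB core TGACG at -57 to -53. DDIT3 held the AP-1 site TGANTCA at -238 to -232 and CCAAT in both directions, at -97 to -93 and -73 to -69. The upstream ATF3 window held TGATGNAA, the letters of the C/EBP-ATF response element that ATF4 binds with a C/EBP partner, at -191 to -184, and in bases not printed the complement of CCAAT at -25 to -21. The downstream ATF3 window, not printed, held TATAAA at -230 to -225 and no other match. Over 35116 promoter windows of the same length, 3.14% held TGATGNAA, 6.57% TGANTCA, 10.7% TATAAA, 21.2% TGACG and 32.0% CCAAT. GC boxes (GGGCGG), which 42.6% of windows held, are not marked; each of the 4 genes had at least 1. The full cyclic AMP element TGACGTCA, which contains the TGACG core, matched in none of the 7 windows, against 1.65% of all windows. The C/EBP letters TTGCNNAA and the ER stress element (CCAAT and CCACG 9 bases apart) matched in none either, against 9.05% and 0.0740%. DDIT3 came near to the ER stress element: 9 bases after CCAAT it reads CCACT, and on the other strand GCACG, each 1 letter from CCACG. A match is only a match of letters in this window, and a lack of matches covers only these 7 windows. Those of ATF3 lie before starts at chr1:212565407 and chr1:212615018. No window lay before any start of ATF3 between these, so the matches and the lack of matches do not describe such a promoter. Bases further upstream, or before any other start of a gene, were not searched.

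All 5 genes were higher in V and were called. By the authors' deposited table, 89.4% of the listed genes were called, 43.4% were called higher in V, and among listed protein-coding genes 61% were called higher in V, and since the 5 were selected on this contrast, nothing is read from their count. The listed log2 fold changes of C over V ran from -4.07 for GDF15 to -2.51 for DDIT3, with a median of -3.21 per the authors' deposited table, beside -2.35 for the 1802 called protein-coding genes higher in V and 1.26 for all listed genes.

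GDF15, the secreted factor (ENSG00000130513, chr19:18374731-18389176, plus strand, GRCh38), had the highest level per kb of exon among the 5 on the V side. Its listed mean over all libraries was 8328 normalised counts per the authors' deposited table, which with the listed fold change gives derived levels of 937 in C and 15720.1 in V. These levels take both sides as equally many libraries and carry no error, and in bulk RNA fewer expressing cells and less RNA per cell cannot be told apart. The log2 fold change per the authors' deposited table was -4.07 ± 0.10 (standard error), so that the level in C was 5.96% of that in V (95% interval 5.20% to 6.83%). Its p is listed as 0, which is too small to be written. By Wald statistic it ranked 15 of the 1802 called protein-coding genes higher in V, and by fold change 470. Of 13 called protein-coding genes with a mean within 1.5 times that of GDF15, 5 had a larger absolute fold change, and their median was 3.83 on the log2 scale. Divided by exon length, GDF15 had 449 normalised counts per kb in C and 7532 in V, rank 87 in C and 2 in V of the 2954 listed protein-coding genes.

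ATF3 (ENSG00000162772, chr1:212565334-212620777, plus strand), a bZIP factor that represses or, with AP-1 partners, activates stress genes, had almost the same fold change at a lower level. Levels derived per the authors' deposited table came to 116 normalised counts in C and 1863 in V. The log2 fold change per the authors' deposited table was -4.01 ± 0.10, a level in C of 6.21% of V (95% interval 5.43% to 7.10%), with p also listed as 0. GDF15 minus ATF3 came to -0.06 on the log2 scale (95% interval -0.34 to 0.22, errors taken as independent), an interval that holds 0. Among the 223 called protein-coding genes with a mean within 1.5 times that of ATF3, 17 had a larger absolute fold change.

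CEBPB (ENSG00000172216, chr20:50190734-50192689, plus strand) encodes C/EBPbeta, a bZIP factor of acute phase and inflammatory genes that also pairs with ATF4. Derived levels per the authors' deposited table were 101 normalised counts in C and 936 in V. The log2 fold change per the authors' deposited table was -3.21 ± 0.12 (DESeq2 adjusted p = 7.72e-168), a level in C of 10.8% of V (95% interval 9.27% to 12.7%). ATF3 minus CEBPB was -0.80 (95% interval -1.10 to -0.51). Among 377 called protein-coding genes of similar mean, 41 had a larger absolute fold change.

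NUPR1 (ENSG00000176046, chr16:28532708-28539174, minus strand), a small chromatin-associated protein induced by many stresses, had derived levels of 604 normalised counts in C and 5004 in V per the authors' deposited table. Its log2 fold change per the authors' deposited table was -3.05 ± 0.10 (DESeq2 adjusted p = 4.16e-214), a level in C of 12.1% of V (95% interval 10.6% to 13.8%). CEBPB minus NUPR1 was -0.15 (95% interval -0.45 to 0.14), an interval that holds 0. Of 68 called protein-coding genes with a mean within 1.5 times that of NUPR1, 9 had a larger absolute fold change.

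DDIT3 (ENSG00000175197, chr12:57516588-57521737, minus strand) encodes CHOP, the factor that drives cell death genes under lasting stress, and had the smallest fold change of the 5. Its derived levels per the authors' deposited table were 144 normalised counts in C and 819 in V. The log2 fold change per the authors' deposited table was -2.51 ± 0.11 (DESeq2 adjusted p = 2.13e-120), a level in C of 17.6% of V (95% interval 15.2% to 20.3%). NUPR1 minus DDIT3 was -0.54 (95% interval -0.83 to -0.26). Among 382 called protein-coding genes of similar mean, 65 had a larger absolute fold change than DDIT3. These differences are between values the genes were selected on, so they describe the listed order and test nothing. All genes share the libraries, so the true error of each difference is not known. Per kb of exon, the derived levels were 106 in C and 882 in V for NUPR1, and 110 in C and 626 in V for DDIT3. They were 51.9 in C and 478 in V for CEBPB, and 28.6 in C and 461 in V for ATF3. With the shortest coding transcript as the length, NUPR1 came to 1098 in C and 9098 in V and ATF3 to 240.0 in C and 3866 in V, so levels per kb depend strongly on the length taken, and so does the order of these 4.

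**Figure D1:**
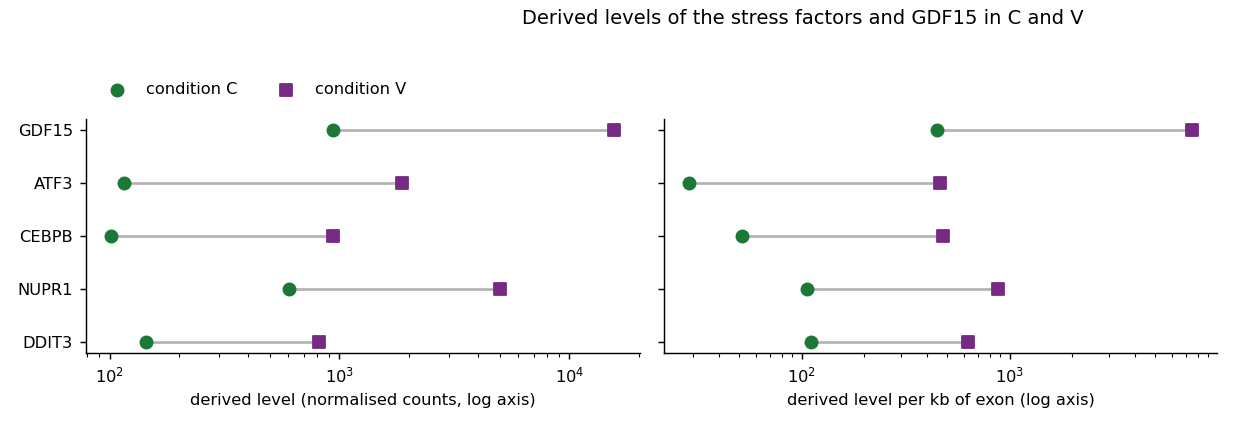
Derived levels of the 5 genes in C (green circles) and V (purple squares), in normalised counts (left) and in normalised counts per kb of exon (right), on log axes and without error bars because the table gives none per side. Every gene lies higher in V, and GDF15, at 937 in C and 15720.1 in V, lies above the others in both panels.

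**Figure D2:**
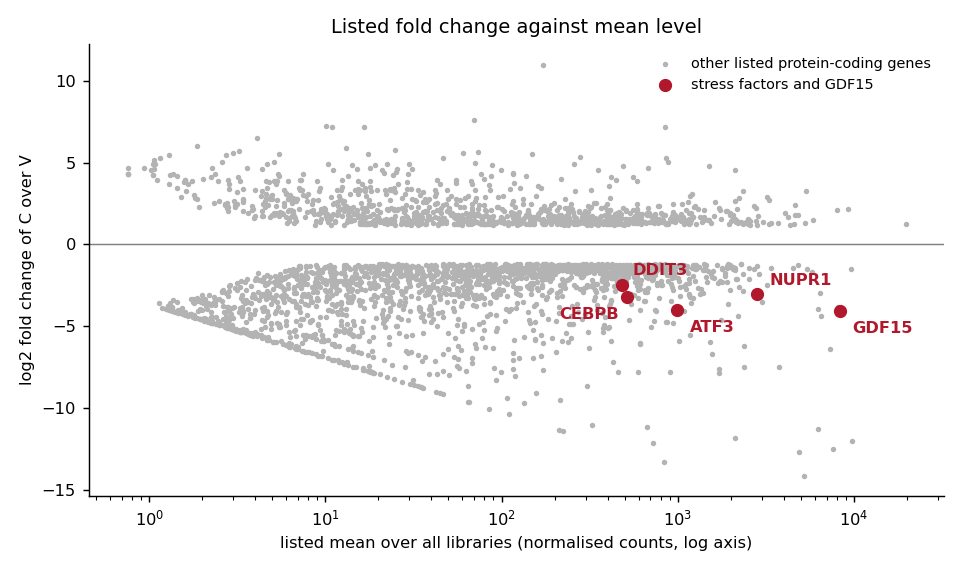
Listed log2 fold change of C over V against the listed mean in normalised counts (log axis) for the listed protein-coding genes (grey) and the 5 genes described (red). The empty band around 0 is the limit of the table at an absolute log2 fold change of 1.20; the 5 lie between -4.07 and -2.51 at means from 481 to 8328.

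Exons of other genes overlap 2 of the 5, which bears on their counts because the protocol names a stranded kit beside another and the strand setting of the counting is not given, so their reads cannot be told apart. Of the 1307 exon bases of DDIT3, 355 (27.2%) are shared with MARS, the methionine tRNA synthetase gene on the opposite strand, 105 with the same-strand gene AC022506.1 and 58 with MBD6 on the opposite strand. None of these is listed. Of the 1956 exon bases of CEBPB, 231 (11.8%) are shared with the antisense RNA CEBPB-AS1. In the authors' deposited table CEBPB-AS1 stood at a mean of 8.09 normalised counts with a log2 fold change of -1.42 ± 0.69 and was not called (DESeq2 adjusted p = 0.0821). ATF3, NUPR1 and GDF15 had no such shared exon bases in GENCODE release 29.

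Introns of GDF15 and DDIT3 hold microRNA genes that the table lists as rows of their own. Their mature RNAs, from RefSeq on GRCh38.p14, are shown with the seed, bases 2 to 8, in capitals. The GDF15 intron holds MIR3189, at chr19:18386562-18386634 on the plus strand, and the DDIT3 intron MIR616, at chr12:57519163-57519259 on the minus strand.
hsa-miR-3189-5p: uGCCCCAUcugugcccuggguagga
hsa-miR-3189-3p: cCCUUGGGucugaugggguag
hsa-miR-616-5p: aCUCAAAAcccuucagugacuu
hsa-miR-616-3p: aGUCAUUGgaggguuugagcag
The 4 mature RNAs have 4 different seeds. MIR3189 was higher in V, at -3.80 ± 0.50 (DESeq2 adjusted p = 1.72e-13) per the authors' deposited table, with derived levels of 3.58 normalised counts in C and 49.8 in V. That differs from its host GDF15 by 0.27 on the log2 scale, less than its own standard error. MIR616 was listed at -5.13 ± 1.29 (DESeq2 adjusted p = 0.000247) per the authors' deposited table, with derived levels of 0.356 in C and 12.5 in V, so its fold change has a wide error. It differs from its host DDIT3 by -2.62 on the log2 scale, with a 95% interval for MIR616 of -7.65 to -2.61. No listed p exceeds 0.05, so at that standard error a fold change like the -2.51 of DDIT3 could not have been listed. Nothing is therefore read from this difference. A row of a microRNA gene does not tell its arms apart, nor a mature RNA from the host's intron.

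Around the 5 genes, 64 annotated genes lay within 100 kb of 1 of them. The table lists 11 of these; 10 were called higher in V, none higher in C, and CEBPB-AS1 was not called. Those that are not the nearest neighbour of a gene were named after their values were seen. Besides the microRNA genes they were FAM71A beside ATF3, ARHGAP9 and PIP4K2C beside DDIT3, APOBR beside NUPR1, SMIM25 beside CEBPB, and LRRC25, PGPEP1 and JUND beside GDF15. Of the 35 protein-coding neighbours 7 were called higher in V, against 9.03% of all annotated protein-coding genes called higher in V and 4.68% called higher in C, shares that count genes whatever their level. For the 64 of every gene type no such share was counted. Of all listed genes 43.4% were called higher in V. Nothing is read from the count of 10. In the authors' deposited table PGPEP1, whose gap to GDF15 is 4781 bases, stood at -1.42 ± 0.11, and the AP-1 subunit JUND at -1.71 ± 0.10. FAM71A, 3697 bases beyond the end of ATF3, stood at -5.17 ± 1.43 at a mean of 3.10 normalised counts per the authors' deposited table. Low means were also listed for LRRC25 (1.95), SMIM25 (2.37) and ARHGAP9 (9.32). APOBR had a mean of 23.4, and PGPEP1, PIP4K2C and JUND had means of 454, 632 and 967.

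The rest of the response was listed in part. Over 5 lists of its sensors, regulators and targets, 77 genes without the 5, 17 were listed and all 17 called: 16 (20.8%) higher in V and 1 higher in C, beside 9.03% and 4.68% of all annotated protein-coding genes. Among protein-coding genes that were listed, 61% were called higher in V. The median log2 fold change of the 17 was -1.79, while that of all called protein-coding genes higher in V was -2.35. That larger set had a median mean of 67.7 normalised counts and a median standard error of 0.33. Called protein-coding genes of either direction with a mean within 1.5 times that of DDIT3 (481) had a median absolute log2 fold change of 1.60. For NUPR1 (2804) it was 1.66. Medians set beside -2.35, here and below, are therefore not compared at like levels. No difference between a list and all genes was tested, here or for the lists that follow.

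Control of eIF2alpha came first in the order of the pathway. The list of 17 genes held its kinases, phosphatase subunits and the exchange factor eIF2B. It also held EIF2S1, which encodes eIF2alpha itself, and DNAJC3, OMA1, DELE1, GCN1 and IMPACT. Of the 17, 2 (11.8%) were called, both higher in V, a share near the 9.03% of all annotated protein-coding genes. EIF2AK3 encodes PERK, the kinase of the endoplasmic reticulum, and was listed at -2.01 ± 0.09 per the authors' deposited table, with derived levels of 193 normalised counts in C and 776 in V. PPP1R15A encodes GADD34, which returns eIF2alpha to its unphosphorylated form, and was listed at -3.75 ± 0.19, with derived levels of 34.8 in C and 467 in V per the authors' deposited table. EIF2AK1, EIF2AK2 and EIF2AK4, the other kinases, had no row in the table used here.

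Of 11 other regulators 4 were called, 3 of them (27.3%) higher in V, beside 9.03% of all annotated protein-coding genes. With a log2 fold change limit of 2 only TRIB2, higher in C, was left, and with a mean of at least 100 TRIB2 dropped out and the 3 higher in V were left. KLHL24 (-1.79 ± 0.11), the mTORC1 inhibitor SESN2 (-1.38 ± 0.09) and the pseudokinase TRIB1 (-1.30 ± 0.10) were higher in V per the authors' deposited table. The pseudokinase TRIB2 was the exception, higher in C at 3.99 ± 0.24 per the authors' deposited table, with derived levels of 149 normalised counts in C and 9.37 in V. ATF4 itself, whose control is mainly at translation, had no row in the table used here, nor had ATF5, CEBPG, TRIB3, CHAC1 and DDIT4.

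Amino acid genes are a broad class of ATF4 targets. Of 21 genes of amino acid and folate metabolism and transport 3 (14.3%) were called, all higher in V, beside 9.03% of all annotated protein-coding genes. They were the cystine transporter SLC7A11 (-1.59 ± 0.12), the cysteine-forming enzyme CTH (-1.43 ± 0.16) and the mitochondrial folate enzyme ALDH1L2 (-2.21 ± 0.48) per the authors' deposited table. Asparagine synthetase ASNS and the serine pathway genes PHGDH, PSAT1, PSPH and SHMT2 had no row in the table used here. Of 13 tRNA synthetase and tRNA export genes 1 (7.69%) was called, a share under that 9.03%, the tryptophan enzyme WARS1 (-2.61 ± 0.08 per the authors' deposited table), which is also known as an interferon-induced gene.

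Secreted and death-linked targets of ATF4 and CHOP came next. Of 15 such targets 7 (46.7%) were called, all on the V side, at a median log2 fold change of -2.78, beside 9.03% and -2.35 for all annotated protein-coding genes called higher in V. The BH3-only death factors PMAIP1 (-3.20 ± 0.17) and BBC3 (-2.78 ± 0.17), known targets of p53 too, lay near CEBPB and DDIT3 in fold change per the authors' deposited table. The autophagy receptor SQSTM1 (-2.95 ± 0.08) and the autophagosome protein MAP1LC3B (-1.74 ± 0.12) were also higher in V per the authors' deposited table. So were the degradation factor HERPUD1 (-1.62 ± 0.07), the angiogenic factor VEGFA (-1.21 ± 0.11) and the hormone FGF21 (-2.81 ± 0.63) per the authors' deposited table. FGF21, a second stress hormone, had derived levels of 2.64 normalised counts in C and 18.5 in V per the authors' deposited table, far under GDF15. TNFRSF10B, the death receptor known as a CHOP target, had no row in the table used here.

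**Figure D3:**
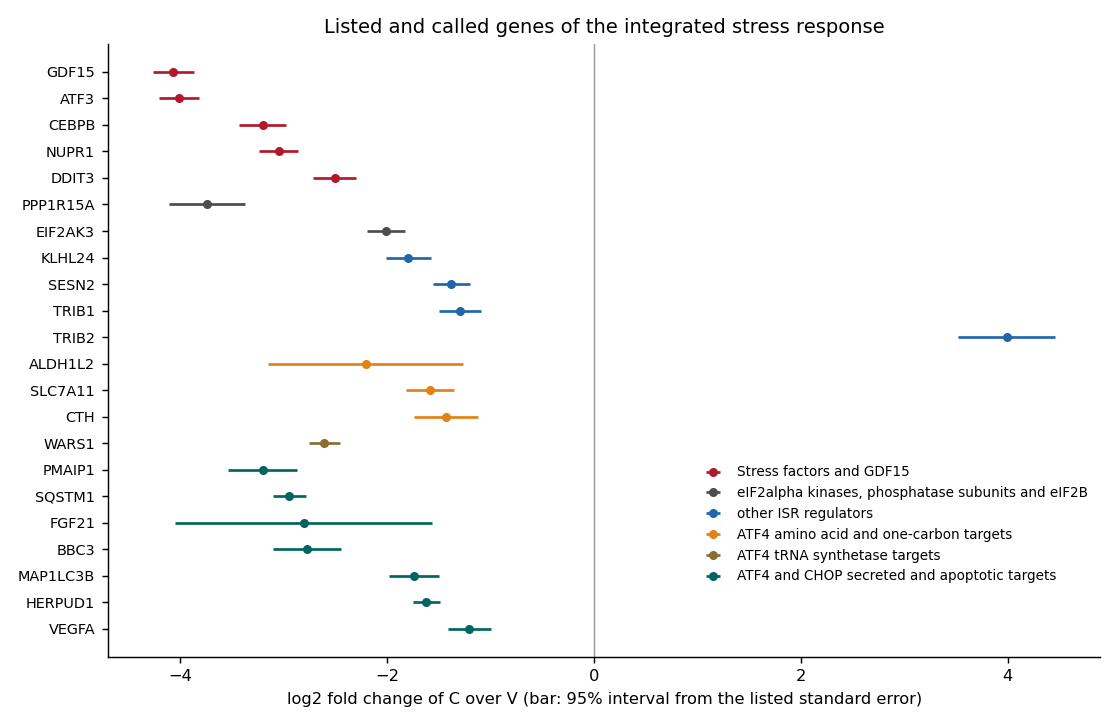
Listed log2 fold change of C over V with its 95% interval for the 5 genes (red) and the 17 called genes of the 5 stress response lists (other colours). All lie left of 0, higher in V, except TRIB2 at 3.99.

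The other 2 arms of the unfolded protein response, IRE1 with XBP1 and ATF6, had 7 of 22 genes called (31.8%), all higher in V, beside 9.03% of all annotated protein-coding genes. Their median was -1.49, beside -2.35 for all called protein-coding genes higher in V, a set with a median mean of 67.7 normalised counts. Among them were the transcription factor XBP1 (-1.81 ± 0.07), the chaperone HSPA5 (-1.49 ± 0.06) and the co-chaperone DNAJB9 (-2.62 ± 0.14) per the authors' deposited table. Of these 7, DNAJB9 alone lay beyond DDIT3 in fold change.

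Relatives and partners of the 4 factors were then counted. The 5 other genes with CEBP symbols were CEBPA, CEBPD, CEBPE, CEBPG and CEBPZ, a set taken by name and not by protein structure. Of these 1 (20%), CEBPD, was called, beside 9.03% of all annotated protein-coding genes. It was higher in V at -1.40 ± 0.29 per the authors' deposited table. No C/EBP gene was left when the log2 fold change had to reach 2, or its interval to lie beyond 1. Of 18 ATF, CREB and BATF genes 4 (22.2%) were called, beside 9.03% of all annotated protein-coding genes, all higher in V and all at low levels, with derived V levels of at most 28.4 normalised counts; for BATF, BATF2 and CREB3L1 the derived C level was under 1, so their fold changes are poorly determined, and none of the 4 had a mean of at least 100. AP-1 partners of ATF3 were called for 10 of 14 genes (71.4%), all higher in V, beside the same 9.03%, with a median of -2.08 beside -2.35. MAFF (-3.74 ± 0.34), FOS (-3.62 ± 0.35) and JUNB (-3.03 ± 0.09) had the largest of these fold changes per the authors' deposited table. JUNB was also abundant, with derived levels of 291 normalised counts in C and 2375 in V per the authors' deposited table.

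For GDF15, 21 genes of its receptor, of pro-protein convertases and of ligand relatives were counted, and 2 (9.52%) were called, both higher in V, a share near the 9.03% of all annotated protein-coding genes. FURIN, a convertase able to cut the GDF15 precursor, was listed at -1.51 ± 0.10, and TGFB1 at -4.67 ± 1.24 with derived levels of 1.62 in C and 41.5 in V, per the authors' deposited table. The receptor genes GFRAL and RET had no row in the table used here. Since p53 is known to induce GDF15 and ATF3, its targets were counted as well: 8 of 25 (32.0%) were called, all higher in V, beside 9.03% of all annotated protein-coding genes. Their median was -1.44, beside -2.35 for all called protein-coding genes higher in V, a set with a median mean of 67.7 normalised counts. GADD45A (-3.65 ± 0.17) and the cell cycle inhibitor CDKN1A (-2.86 ± 0.07) had the largest fold changes, and MDM2 (-1.22 ± 0.08) the smallest, per the authors' deposited table. SESN2 is in this list and in that of the other regulators.

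Acute phase and inflammatory genes known to be induced through C/EBPbeta had 6 of 20 called (30.0%), all higher in V, beside 9.03% of all annotated protein-coding genes, with a median of -4.45 beside -2.35. Ceruloplasmin, CP, was the one with a high level, at -8.62 ± 0.65 and derived levels of 1.56 normalised counts in C and 611 in V per the authors' deposited table. CXCL8, PTGS2, C3, SAA1 and G0S2 had derived V levels of at most 48.8 per the authors' deposited table. IL6 and LCN2 had no row in the table used here.

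**Figure D4:**
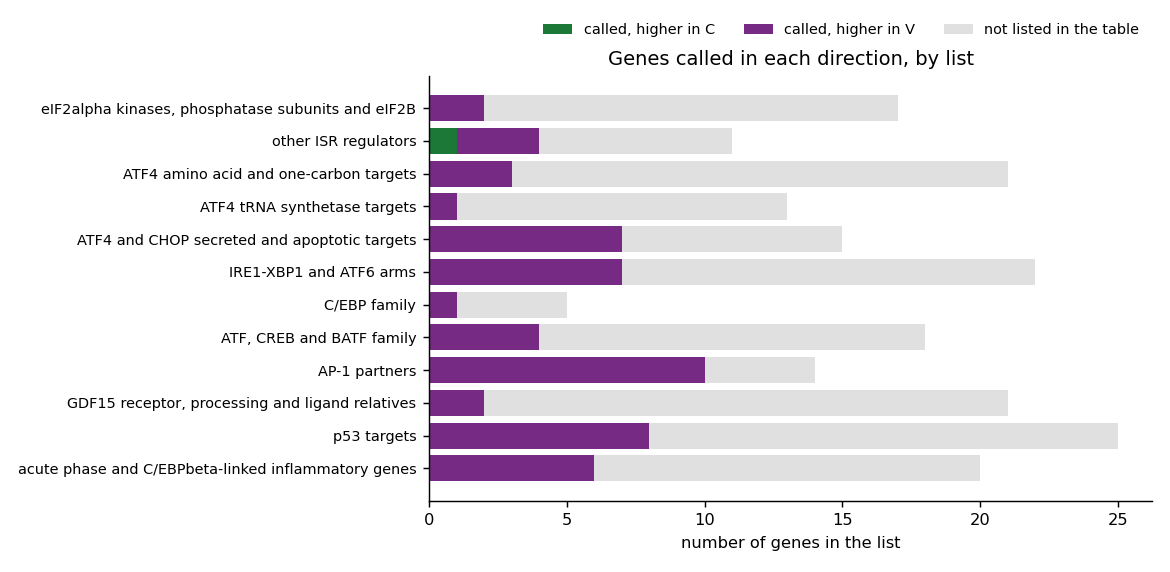
Number of genes per list called higher in C (green), called higher in V (purple) and not listed in the table (grey). The AP-1 partners have the highest share called, 10 of 14, and 1 gene, TRIB2, is higher in C.

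With 1 comparison, likeness can only mean a near fold change at a near level. By distance in log2 fold change and log2 mean, the called protein-coding genes nearest to GDF15 were ZC3HAV1 (0.24) and B2M (0.43). Nearest to ATF3 were HMOX1 (0.14) and ZFP36L2 (0.41), and nearest to CEBPB were STS (0.05) and BAMBI (0.06). NUPR1 had CDKN1A (0.32) and ZNFX1 (0.45) as its nearest genes, and DDIT3 had GABARAPL1 (0.09) and RNF103 (0.10).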

How the data were processed

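RNA libraries of abiraterone-selected and parental C4-2B cells were made from 1 µg of RNA and read as 50 bp single ends, per the labels' protocols. The authors ran DESeq2; its mean of normalised counts, a signal averaged over every library, stands in the deposited table. That deposited table also gives a log2 fold change, C relative to V, estimated by maximum likelihood. Beside it the authors deposited 2 score columns, the standard error and the Wald statistic. The p-value and its Benjamini-Hochberg adjustment are the authors' own, per the file headers. The submitters' processing notes name FastQC and Cufflinks 2.2.1. No aligner, counter or build is known: each is not given in the sources used here.

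The genes and lists were chosen with earlier results of these data known. No test across libraries was run here, since the table has no values per library. Intervals of differences between the 5 genes come from the listed errors and are descriptions; the replicate spread enters only through the listed standard errors, which may be technical. Of 6018 genes 5380 were called; 4 with an adjusted p of 0 beside a p above 0 were read as not given, and 29 have p listed as 0. Intervals are 1.96 standard errors to each side. List genes were matched by Ensembl ID. GENCODE release 29 (GRCh38) supplied positions, gene types and exon lengths; 5935 identifiers matched it, and it need not be the authors' annotation. NUPR1 has no promoter sequence shown. Named genes were the 5, called list genes (first the 4 with the smallest p of each list, then others), the 2 nearest genes of each, and called genes that overlap or lie nearest to one of the 5; other neighbours and genes without a row were named outside this rule. Steps ran in Python 3.11.15 with pandas 2.3.3. Only the implied variation between libraries and the log2 ratio of mean levels were tested on simulated data.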

Additional observations from a re-analysis of the deposited data

How the results depend on the processing

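All 5 genes remained called higher in V with an adjusted p under 0.01, with a log2 fold change of 2 or more in size, with a 95% interval beyond a log2 of 1 and at means from 100 up. The adjusted p limit left all 13 counts of called genes within 1.5 times. The log2 fold change limit of 2 left 1 other regulator (TRIB2, higher in C), 1 amino acid gene, 4 secreted and death-linked targets, 1 gene of the IRE1 and ATF6 arms, 0 C/EBP genes, 5 AP-1 partners, 1 GDF15 relative and 2 p53 targets. The interval rule left 0 C/EBP genes. A mean of at least 100 left 0 ATF, CREB and BATF genes, 1 GDF15 relative and 1 acute phase gene. Derived levels moved with the libraries assumed: GDF15 had 1073 in C and 18003 in V with 4 libraries of C and 3 of V, and 831 in C and 13951 in V with 3 and 4. Per kb, GDF15 stayed highest in V with the shortest and the longest coding transcript, while in C NUPR1 (1098) passed GDF15 (781) with the shortest, lengths tried after seeing the data. No paired analysis was possible because the table holds no values per library, and for the same reason no replicate could be left out. Depth per library is unknown, and 608 called genes had a derived C level under 1.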

Other observations

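The variation between libraries that the listed standard errors imply was computed for the 5 genes, taking 3 libraries a side and the spread as equal on both. It is the variation of the authors' fitted model, and not a spread measured between the libraries of each gene. It came to a coefficient of variation of 4.96% for ATF3, 6.39% for DDIT3, 6.41% for CEBPB, 7.66% for NUPR1 and 8.17% for GDF15. The 1244 called protein-coding genes with a mean of at least 100 had a median of 7.96%. For GDF15, genes of similar mean had a median of 5.38%, and for ATF3 6.53%. With 2 libraries a side the values ran from 1.03% for ATF3 to 6.53% for GDF15, and with 4 from 6.93% for ATF3 to 9.53% for GDF15, a choice made after seeing the data.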
